A study of Drosophila melanogaster with 3 samples.

Results

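The small subunit of the cytosolic ribosome is encoded in Drosophila melanogaster by genes named RpS with a number, together with sta, which encodes the protein called RpSA in mammals. Choosing every protein-coding gene whose symbol has that form, plus sta, gave 39 genes of the 13945 protein-coding genes annotated on the main chromosome arms. Chromatin binding of CG3281 at these genes was read from ChIP-seq of whole embryos of mixed sex, aged 0 to 24 h, from a transgenic line stably expressing CG3281 with GFP at its C terminus. The precipitation used an antibody against GFP on sonicated chromatin. All 3 samples belong to 1 group, embryos of the CG3281-GFP line, and are biological replicates. The authors called regions against a control input, which is not analysed here. Embryos of an untagged line are not used here. Values are therefore compared between genes and between replicates, not between conditions, and whole embryos do not show which cells the binding came from.

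The small subunit reads the mRNA. It scans to the start codon, holds the codons against tRNA and, in its decoding centre, checks each match. Its proteins are needed in equal amounts, and their genes are known in flies for a polypyrimidine initiator, called TCT, in place of the usual initiator element. CG3281 is a C2H2 zinc finger protein. All positions are on the dm6 assembly, and a transcription start site is written TSS.

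A gene was called bound when any of its TSSs had, at most 500 bp away, the summit of a peak in the authors' reproducible set. That set holds 6565 peaks selected by the irreproducible discovery rate. Of the 39 small subunit genes, 32 were bound, a share of 82.1% with an exact 95% binomial interval of 66.5% to 92.5% that covers counting error over genes only. Over all protein-coding genes the share was 24.8%. The genes of the large subunit, the most similar group, had 48 of 53 bound (90.6%). Counted as proteins, 31 of the 32 numbered proteins and RpSA had at least 1 bound gene.

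The replicates were examined one by one with the 6565 strongest regions of each list. Replicate 1 had 31 small subunit genes bound, replicate 2 had 32 and replicate 3 had 35, a mean of 32.7 ± 2.08 (SD, n = 3). The shares over all protein-coding genes were 24.8%, 26.3% and 24.1% in the same replicates. In all 3 replicates together, 29 of the 39 genes were bound, against 18.5% of all protein-coding genes, and those 29 were also bound in the reproducible set. The other 3 genes of the set were RpS2, RpS24 and RpS30. In every replicate each had a region that spanned the summit of its peak in the set. In at least 1 replicate that region fell below the strongest 6565. The replicate summits were not always at the same place. They lay 95 bp from the summit of the set at RpS2 and -96 bp at RpS24, both in replicate 2, and 136 bp at RpS30 in replicate 3. Read depth is unknown, because the peak lists hold no read counts.

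Signal is the authors' own value per peak, and it ranks peaks only within a list. The 32 bound genes had a median pooled signal of 700.5, with a range of 253 to 2492. The median was 411 for all bound protein-coding genes and 813 for the bound large subunit genes. The peak of 20 of the 32 genes (62.5%) was among the 25% of peaks with the highest signal, against 35.0% of all bound genes. Among the 25% with the lowest signal were the peaks of 0 of the 32, against 18.3% of all bound genes. The small subunit genes therefore sat in the upper and middle parts of the ranking, and the lowest of them stood above the weakest signal in the set, 198.3.

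Genes for proteins of the head of the subunit had a higher median signal than those for its body, a difference that was not tested. Grouped after the values had been seen by the textbook division of the subunit into a head and a body with its platform, 14 of the 18 genes for head proteins and 18 of the 20 genes for body proteins were bound, with RpS28-like in neither group. The median pooled signal was 895 for the head genes and 472 for the body genes. The ranges overlapped widely, at 436 to 1483 for head genes and 253 to 2492 for body genes.

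Among the body genes the highest was RpS27, which encodes a zinc-binding protein (FBgn0039300, peak on 3R from 25247291 to 25247904). Its pooled signal of 2492 ranked 88 among the 6565 peaks. The signal was 628 in replicate 1, 1119 in replicate 2 and 751 in replicate 3, or 18.5, 28.9 and 17.2 times the median of each list. Replicate 2 was the highest, and all 3 stood above every other small subunit gene in the same replicate. Below it came RpS4 (FBgn0011284, 3L from 13041598 to 13042023, pooled signal 1514), with 429, 548 and 546 in replicates 1, 2 and 3, which stayed close together at 13.1 ± 0.92 (SD, n = 3) times the list median. RpS3A, which touches the mRNA exit channel, lies on chromosome 4, an arm with only 19 peaks in the set. Its signal of 788 was the third highest of those 19.

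Other body genes lay nearer the middle of the ranking. The gene sta (FBgn0003517, X from 1483156 to 1483467), named for the stubby antennae of its mutants, had a pooled signal of 754 and 158, 285 and 308 in replicates 1, 2 and 3. RpS6, the protein phosphorylated by S6 kinase, had a pooled signal of 455 and 138, 112 and 170 in the replicates (FBgn0261592, X from 7901165 to 7901480). Its replicate values lay close to the median of all bound genes, which was 3.65, 3.72 and 3.51 times the list median, since RpS6 reached 4.06, 2.89 and 3.89 times. RpS7 had 731 with the most even replicates of all, 6.45 ± 0.13 (SD, n = 3) times the list median. RpS21 had 729, and RpS23, which reaches into the decoding centre, 672. RpS9, which guards decoding accuracy, had 474, RpS13 368 and RpS26, whose protein lies at the mRNA exit, 318.

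Of the head genes, RpS25 was the highest (FBgn0086472, 3R from 11216151 to 11216591, pooled signal 1483); its protein is known in yeast and mammals for initiation at internal ribosome entry sites. It had 394, 565 and 518 in replicates 1, 2 and 3, and again replicate 2 was the highest. RpS18, which lies near the peptidyl tRNA, had a pooled signal of 1009 and 299, 382 and 331 in the replicates (FBgn0010411, 2R from 20263808 to 20264152). RpS20 had 969 pooled and 296, 314 and 341 in the replicates (FBgn0019936, 3R from 20821877 to 20822189); in humans its protein is ubiquitylated when ribosomes collide. RpS16, whose tail contacts the peptidyl tRNA, had 916 pooled and was more uneven, with 208, 411 and 301 (FBgn0034743, 2R from 22605914 to 22606263). The spread of RpS16 was 30.5% of its mean relative signal, against 5.69% for RpS20.

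The remaining single-copy head genes had less signal. RpS12, known in flies for its part in cell competition, had 801, RpS29 766 and RpS15 586. RpS27A is made as a fusion with ubiquitin (FBgn0003942, 2L from 10408162 to 10408443). It had a pooled signal of 669 and 182, 269 and 238 in replicates 1, 2 and 3. RpS3, at the mRNA entry and known in flies as a Minute locus, had the lowest signal of the head genes at 436, with 77.8, 149 and 185 in the replicates (FBgn0002622, 3R from 23358659 to 23359094).

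The 3 weakest bound genes were each low in 1 replicate. RpS30, made in mammals as a fusion with a ubiquitin-like protein, had a pooled signal of 286 and 56.9, 111 and 138 in replicates 1, 2 and 3 (FBgn0038834, 3R from 20850412 to 20850847). RpS2, at the mRNA entry, had 284 pooled and 88.9, 45.2 and 149.9 in the replicates (FBgn0004867, 2L from 9897245 to 9897680). RpS24 had 253 pooled and 29.8, 99.9 and 111 in the replicates (FBgn0261596, 2R from 22641159 to 22641594). Replicate 1 was low at RpS30 and RpS24, and replicate 2 was low at RpS2. Over the 32 bound genes replicate 2 gave the highest relative signal in 19, replicate 3 in 7 and replicate 1 in 6. The order of the genes was similar between replicates, with a Spearman rank correlation of 0.90 between replicates 1 and 2, 0.84 between 1 and 3 and 0.91 between 2 and 3. These correlations are across genes that share their libraries and also define the pooled peaks, so they are a description only.

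**Figure D1:**
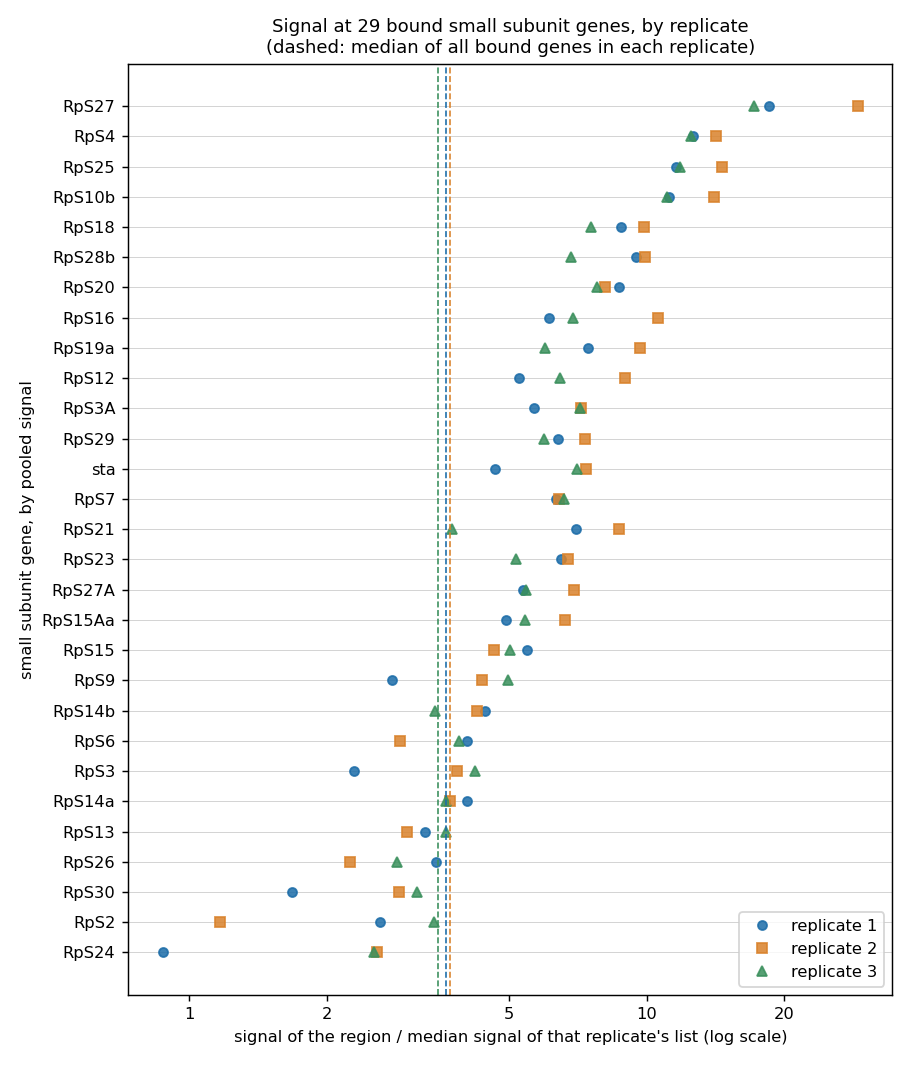
Each row is a bound small subunit gene, 29 of the 32 being drawn, ordered by pooled signal, and the log x axis gives the signal of the region at that gene as a multiple of the median of the same replicate's list. Points are replicates, dashed lines the medians of all genes bound in each replicate (3.65, 3.72 and 3.51). RpS27 lies furthest right in all 3 replicates, and RpS24 and RpS2 show the widest gaps between replicates relative to their means.

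The summits lay close to the TSS. The median distance of the 32 summits from the nearest TSS of the gene was -2 bp, where a negative value is upstream, with quartiles of -23.25 and 9.25 bp and a range of -148 to 65 bp. The median was -125 bp for all bound genes and -10.5 bp for the bound large subunit genes. Within 50 bp of a TSS lay 26 of the 32 summits (81.2%), against 18.8% over all bound genes. Within 100 bp lay 31 of the 32, against 35.2% over all bound genes. Upstream and downstream sides were nearly even, at 17 and 15 genes, and offset each other in the signed median. Without sign the median distance was 21 bp, against 141 bp for all bound genes.

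The position held in each replicate. The median over the bound genes of each list was -9, -7 and 1 bp in replicates 1, 2 and 3, a mean of -5 ± 5.29 bp (SD, n = 3), against -126 ± 2.84 bp for all bound genes. The gap between small subunit genes and all bound genes was thus far larger than the spread between replicates. The number of annotated TSSs per gene was similar, 1.84 on average for the bound small subunit genes and 1.8 for all bound genes. With genes of only 1 TSS, a comparison added after seeing the data, the median was -6.5 bp over 12 small subunit genes and -136 bp over 1891 bound genes. Measured from the canonical TSS, 22 of the 32 summits were within 50 bp, against 14.7% of all bound genes.

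Single genes show how narrow the placement was. At RpS27 the pooled summit was at -1 bp and the replicate summits were at -4, 3 and 8 bp. At RpS4 the pooled summit was at 4 bp and the replicate summits at 2, 2 and 19 bp. At RpS10b it was at -3 bp, with -21, -9 and -2 bp in the replicates. RpS20 was the exception, at -148 bp with -159, -147 and -147 bp in the replicates, and was the farthest from a TSS of the 32. RpS20 had a second, weaker summit in the set (signal 397) at 52 bp. RpS27 also had a second summit, at -208 bp with signal 561, and RpS13 had 1 at -131 bp with signal 282. The median peak width was 349 bp, against 436 bp for all bound genes and 382.5 bp for the bound large subunit genes. The 3 weakest bound small subunit genes each had a peak of exactly 436 bp, as did RpS9, RpS3, RpS13 and RpS26, and any link of width to signal was not tested. Whether this repeated width was measured or set by the peak calling is not known here, so the medians are not read as a breadth of binding.

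**Figure D2:**
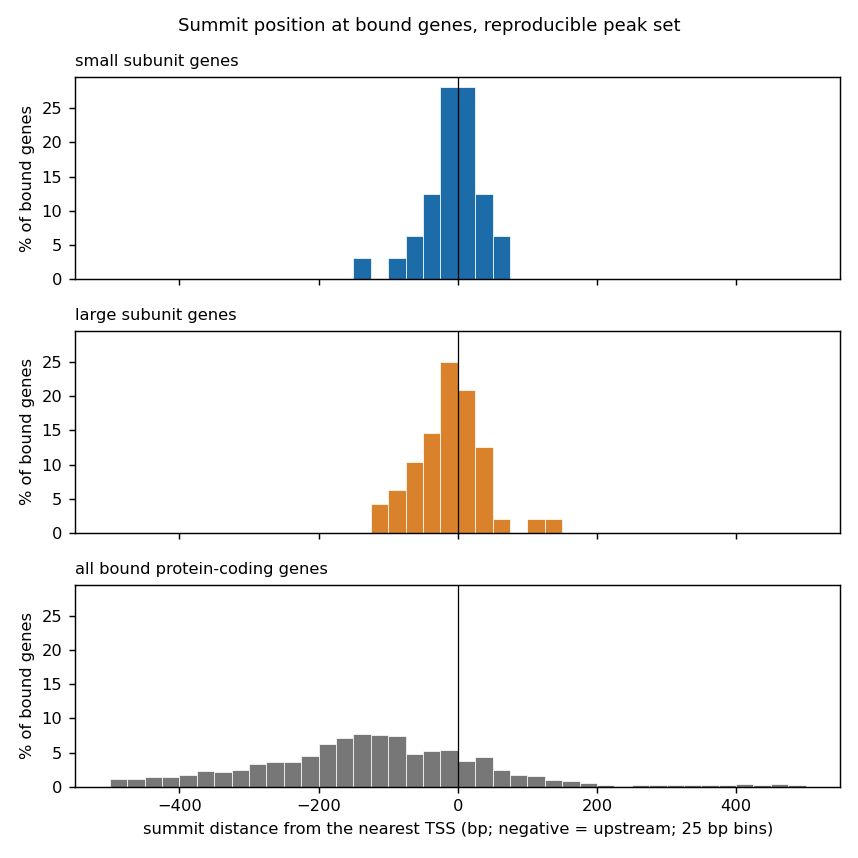
The x axis is the signed distance of the strongest summit from the nearest TSS in bins of 25 bp, and the y axis the percentage of bound genes. The 32 small subunit genes (top) and the large subunit genes (middle) peak in the bins beside the TSS, and all bound genes (bottom) spread mostly upstream.

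Because the summits sat close to the start sites, the start sequences are shown for the 3 strongest and the 2 weakest bound genes among those whose sequence is printed here. Each window runs 5′ to 3′ on the gene's strand from 80 bases upstream to 20 bases downstream of the TSS, which is base 81, and comes from the RefSeq copy of the dm6 assembly. Capitals mark CTTTT or CTTTC beginning within 5 bases of the TSS, here called a TCT start, or TATCGATA, the DNA replication-related element (DRE). RpS27 is on the minus strand at chr3R:25247494-25247594, RpS4 on the plus strand at chr3L:13041721-13041821 and RpS25 on the minus strand at chr3R:11216267-11216367. RpS30 is on the plus strand at chr3R:20850517-20850617 and RpS2 on the minus strand at chr2L:9897501-9897601.
RpS27: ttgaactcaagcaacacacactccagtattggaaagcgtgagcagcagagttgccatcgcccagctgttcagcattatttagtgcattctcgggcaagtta
RpS4: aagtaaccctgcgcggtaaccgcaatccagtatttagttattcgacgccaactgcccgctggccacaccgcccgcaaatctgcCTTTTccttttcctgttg
RpS25: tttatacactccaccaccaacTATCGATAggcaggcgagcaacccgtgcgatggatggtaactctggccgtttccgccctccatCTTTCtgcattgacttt
RpS30: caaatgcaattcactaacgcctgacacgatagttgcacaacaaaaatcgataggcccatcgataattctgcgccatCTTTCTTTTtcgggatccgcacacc
RpS2: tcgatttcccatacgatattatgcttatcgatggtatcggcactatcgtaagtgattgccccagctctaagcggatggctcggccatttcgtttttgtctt

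In these windows RpS4, RpS25 and RpS30 carry a TCT start, which is thus present at both ends of the ranking. RpS27 has its TCT start at its other TSS, and RpS2 has none within 5 bases of a TSS. Over all members, 24 of the 39 genes (61.5%) had a TCT start at 1 of their TSSs, against 5.13% of all protein-coding genes. The share was 62.3% for the large subunit genes, so the TCT start was not particular to the small subunit. Of the 24, 23 were bound, against 39.5% of all genes with such a start. Without a TCT start 9 of 15 genes were bound, against 24% of all such genes. With the C allowed within 25 bases of a TSS, a setting added after seeing the data, 32 of the 39 genes qualified, against 20.7% of all genes. At the bound genes the summit was at a median of -14 bp from the C of the word, with quartiles of -39 and 16.5 bp. Of 23 summits, 18 were within 50 bp of it. A TCT start lies within 5 bases of a TSS by definition, so this largely restates the distance of the summits from the TSS.

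Other promoter words were counted within 50 bp of the summit on either strand, beside the same count over the 3012 promoter summits of the set. DRE, TATCGATA, was at 3 of the 32 summits (RpS14a, RpS25 and RpS29), against 2.49% of all promoter summits. Within 100 bp it was at 10, against 5.71%. CGATA, the core word of BEAF-32, also lies inside TATCGATA. It was at 11 of the 32, against 18.6%, and within 100 bp at 21 of the 32, against 35%. At the summits of the bound large subunit genes, DRE was at 16.7% within 50 bp and 25% within 100 bp. CGATA was at 41.7% and 62.5% of those summits in the same windows. DRE is the site of the factor DREF in the promoters of replication and growth genes, and BEAF-32 is an insulator protein of fly promoters.

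Each of the other words was at 4 summits or fewer. The word GGTCACACT of the promoter factor M1BP was at 0 of the 32, against 1.29% of all promoter summits. Its inner part CACACT, a word added after the sequences had been seen, was at 3, against 7.54%. The E-box CAGCTG was at 4 (RpS14b, RpS16, RpS21 and RpS27), against 5.51%, and GAGAG, the GAGA factor word, was at 2, among them RpS24, against 9.89%. TATAAA was at 2 (RpS25 and RpS27A), against 21.2%. Within 100 bp the counts were 2 for GGTCACACT against 2.89%, 10 for CACACT against 15.8%, 5 for CAGCTG against 12.3%, 5 for GAGAG against 22.7% and 4 for TATAAA against 35.4%. The words describe letters near a summit, not sites in use.

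**Figure D3:**
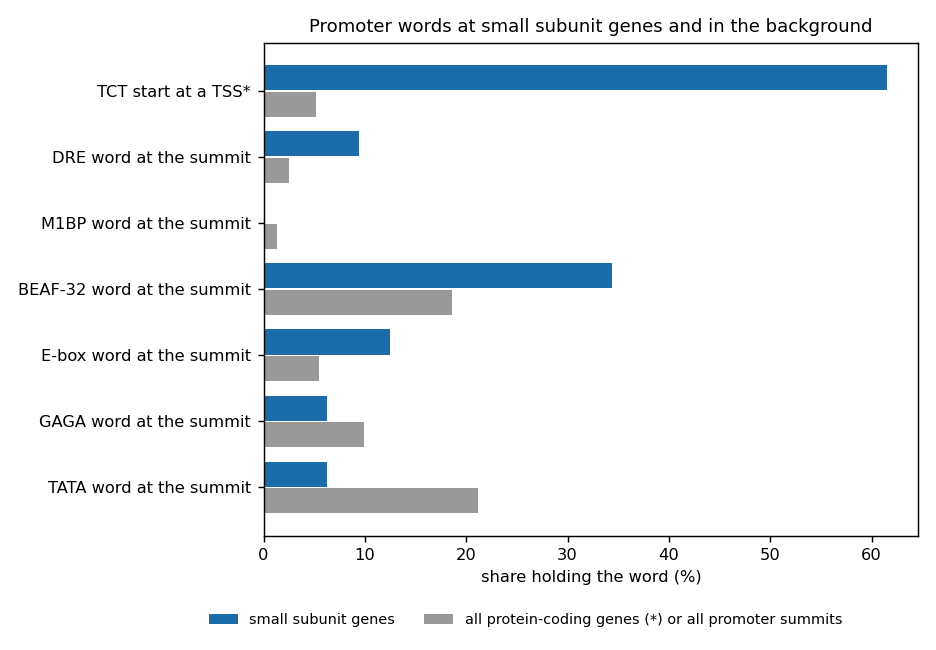
Bars give the percentage that holds each word, small subunit genes above the background. The TCT start is counted over all 39 genes against all protein-coding genes, and the other words within 50 bp of the 32 summits against all promoter summits. The TCT start (61.5% against 5.13%) has the widest gap, and TATAAA (6.25% against 21.2%) runs the other way. Large subunit genes, of which 62.3% had a TCT start, are not drawn.

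Of the small subunit proteins, 6 have 2 gene copies. In 5 of these families 1 copy was bound in the reproducible set and the other was not. RpS10b had 1379 pooled and 380, 543 and 486 in the replicates (FBgn0285947, X from 19597686 to 19598226). RpS10a, a single-exon gene that lies inside tau on the opposite strand, had no region in the pooled list. It did have a region at -141, -106 and -116 bp in all 3 replicates, with signal 60.8, 65.2 and 102. RpS28b had 997 pooled and 322, 384 and 298 in the replicates (FBgn0030136, X from 9554407 to 9554768). RpS28a had a region in replicate 1 only, with signal 109.9, and its summit lay 499 bp downstream of the RpS28a TSS and 72 bp from the TSS of Mgat2. At RpS10 the bound copy was higher in all 3 replicates. At RpS28 only replicate 1 had a region for both copies, and the bound copy was higher there. The bound copy was called from the same replicates pooled, so its higher signal is not separate support for that call.

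RpS19a, of the protein mutated in human Diamond-Blackfan anaemia, had 874 pooled and 253, 375 and 262 in the replicates (FBgn0010412, X from 16637720 to 16638067). RpS19b, known for germline expression, had no region within 500 bp in any replicate. Its nearest peak, of signal 618 on 3R from 23934308 to 23934550, was 884 bp away. RpS15Aa had 663 pooled and 167, 256 and 237 (FBgn0010198, X from 13337493 to 13337823). RpS15Ab had only a weak region, with pooled signal 72.9 at 5 bp and 28.4 in replicate 2. In all 5 families with 1 bound copy, that copy is on X and the unbound one on an autosome; all 9 small subunit genes on X and 23 of the 30 elsewhere were bound. Over all protein-coding genes the shares were 22.6% on X and 25.2% on the other arms.

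RpS14 was the family with both copies bound. RpS14a (FBgn0004403, X from 7933571 to 7933831) had 414 pooled and 138, 144 and 159 in replicates 1, 2 and 3. RpS14b (FBgn0004404, X from 7934751 to 7934979) had 471 pooled and 151, 165 and 151. The copies lie side by side on the same strand, with coding sequences 97.8% identical, and their values overlapped in the replicates, yet each had its own summit, at -22 and -39 bp from its TSS. The coding sequences of RpS15Aa and RpS15Ab are 98.2% identical. How the authors treated reads that match both copies is not given in what is used here, and any effect on these 4 genes was not tested. Around the TSS, from 200 bp upstream to 100 bp downstream, copies were 52% to 56.3% identical, against a median of 53.7% for 735 pairs of genes from different families, and all 6 families lay within the range of those pairs, 47.7% to 63.7%.

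The start windows of 2 pairs of copies are printed as before, with the same marks. RpS14a is on the plus strand at chrX:7933662-7933762 and RpS14b on the plus strand at chrX:7934818-7934918. RpS28b is on the plus strand at chrX:9554543-9554643 and RpS28a on the minus strand at chr3R:30022628-30022728.
RpS14a: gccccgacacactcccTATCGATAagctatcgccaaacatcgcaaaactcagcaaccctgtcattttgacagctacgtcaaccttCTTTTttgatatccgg
RpS14b: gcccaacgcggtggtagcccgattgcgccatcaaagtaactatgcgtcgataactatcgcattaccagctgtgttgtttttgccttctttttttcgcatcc
RpS28b: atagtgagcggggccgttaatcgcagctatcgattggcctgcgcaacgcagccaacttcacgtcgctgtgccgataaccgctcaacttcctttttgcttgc
RpS28a: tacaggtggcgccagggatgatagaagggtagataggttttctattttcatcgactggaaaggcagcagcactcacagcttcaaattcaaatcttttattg
In these windows RpS14a carries a TCT start and a DRE. RpS14b has its TCT start at its other TSS. RpS28b and RpS28a, the latter a single-exon gene, have no TCT start. The windows of RpS14b, RpS28b and RpS28a each hold CTTTT further than 5 bases downstream of the TSS, so the contrast between copies depends on that limit. The 3 single-exon genes, RpS10a, RpS15Ab and RpS28a, were all unbound in the reproducible set, against 32 bound of 36 genes with several exons. Over all protein-coding genes 12.2% of single-exon genes and 27.2% of genes with several exons were bound.

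**Figure D4:**
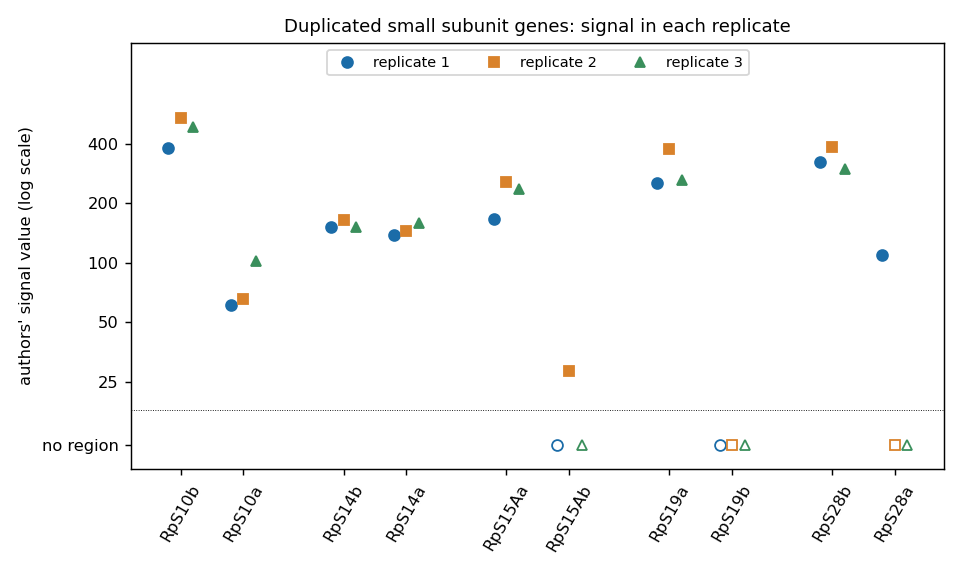
The log y axis gives the authors' signal in each replicate for both copies of 5 of the 6 duplicated families, the bound or stronger copy at the left of each pair. Open symbols below the dotted line mark a replicate with no region within 500 bp of a TSS. Both RpS14 copies lie between 138 and 165. The left copy is higher in all 3 replicates for RpS10. Both copies have a value only in replicate 2 for RpS15A and only in replicate 1 for RpS28, with the left copy higher. No replicate has both values for RpS19.

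The last gene described here without a peak is RpS28-like. It is a gene resembling RpS28 by its name (57.0% coding identity with RpS28b), and had weak regions, with signal 27.6 in replicate 1, 36.2 in replicate 2 and 62.1 in the pooled list. The replicate 1 summit was 419 bp from its TSS and nearer that of numb, at 246 bp. Any region of the pooled list, background included, was present at 35 of the 39 genes, against 47.5% of all protein-coding genes.

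Many small subunit genes stood back to back with another gene. A TSS on the other strand lay at most 1000 bp upstream for 22 of the 39, against 36.2% of all protein-coding genes, with gaps of 36 to 928 bp and a median of 357.5 bp. Of these 22, 19 were bound, against 40.6% of all genes with such a neighbour. Of the 17 without one, 13 were bound, against 15.8% of all such genes. Among bound genes, 19 of 32 had a divergent neighbour, a share of 59.4%, against 59.3% of all bound genes, so this share was at the background.

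In all 19 bound pairs the summit was nearer the TSS of the small subunit gene than that of the neighbour. Where the neighbour's TSS was more than 500 bp from the summit, as at RpS28b, RpS15Aa and RpS6, the binding rule fixed this outcome. The same share over all bound divergent pairs was not computed. The gap between the TSSs of RpS27 and Nup37, a nucleoporin gene, is 144 bp, and the summit was at -1 bp from RpS27 and -143 bp from Nup37. At RpS18 and plu, a cell cycle gene of the early embryo, the summit was 21 bp from RpS18 and -316 bp from plu. At RpS20 the placement was less one-sided, -148 bp from RpS20 and -185 bp from CG17271. The summit was also nearer the small subunit gene at RpS25 (-53 bp, against -195 bp for CG4820) and RpS16 (-35 bp, against -425 bp for CG4294). The same was true at sta (-10 bp, against -177 bp for inc) and RpS14a (-22 bp, against -369 bp for Dhdds). At RpS28b and RpS15Aa the neighbours l(1)G0320 and CG15747 were beyond 500 bp of the summit, at -846 and -684 bp. The 3 unbound genes with such a neighbour were RpS15Ab beside Lsm10 (36 bp between the TSSs), RpS28a beside Axn (194 bp) and RpS19b beside CG5854 (382 bp). RpS6 is paired with bys, which encodes an assembly factor of the small subunit; the summit was 33 bp from RpS6 and -582 bp from bys, which was not bound.

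No protein-coding TSS was nearer to any of the 32 summits than that of the small subunit gene, although RpS27A shares its TSS with Ip259. Over all bound genes, 77.7% had the nearest TSS to a summit. The window of 500 bp reached another gene at 13 of the 32 summits. Small nucleolar RNAs, which are processed from introns, lay inside 13 of the 39 genes, 43 in all, and 12 of these 13 hosts and 20 of the 26 others were bound. Over all protein-coding genes, 72.6% of the 84 hosts and 24.5% of the others were bound. Of 9 names of genes for factors that bind or assemble the small subunit, 7 were matched, and Rack1, which sits on the head of the subunit, was the bound one, with signal 992 and its summit at -17 bp. S6k, bys, RIOK1, RIOK2, l(1)G0004 and Tsr1 were not bound.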

How the data were processed

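Per the file headers and the labels, the authors called regions on dm6 from each replicate and from the pooled replicates, each with 1 control, and derived a reproducible set of 6565 peaks. The deposited signal value and the deposited summit offset of each region were used; the deposited −log10 q-value was not. The sources used here do not name the aligner, peak caller or reproducibility threshold. Gene models were those of Ensembl release 115, and sequence was read from RefSeq's copy of that build. Binding required a summit at most 500 bp from any TSS. For a bound gene, the replicate value is that of the strongest region of that list spanning the pooled summit, and for other genes that of the strongest region within 500 bp. Alignments between copies scored a match 2, a mismatch -1, a gap opening -4 and its extension -0.5. No protein sequences were used, so identity is of coding sequence. Given in full are the 10 strongest and 3 weakest bound genes, all unbound ones, all duplicated copies, RpS6, RpS27A, RpS3 and sta, except for a few genes not reported here. Members and lists were chosen with earlier results of these data known. No test was made, as the series has 1 group. The assignment was tested on simulated summits. Tools were Python 3.11.15, numpy 2.4.6, scipy 1.17.1, pandas 2.3.3, Biopython 1.88 and matplotlib 3.10.9.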

Additional observations from a re-analysis of the deposited data

How the results depend on the processing

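Across the alternatives the number of bound small subunit genes ran between 27 and 35. Windows of 250 bp, nearest-TSS assignment and RefSeq TSSs each gave 32, against 20%, 19.3% and 24.8% of all genes, and a window of 1000 bp gave 33, with RpS19b added, against 28.6%. The first 2 outcomes were fixed beforehand, since the summits lay from -148 to 65 bp and no other TSS was nearer. RefSeq TSSs gave 3456 bound genes in all, the same number as the main setting, so they were hardly a separate check. The 50% of peaks with the most signal gave 28, without RpS2, RpS24, RpS26 and RpS30, against 15.2%. Keeping only peaks matched in both other replicates gave 27 to 30, against 18.1% to 18.7%. Without replicate 1 RpS2 and RpS27A were lost. Of the 5 lost without replicate 2, RpS24, RpS27A, RpS29 and RpS30 are reported here, and of the 5 lost without replicate 3, RpS2, RpS24, RpS29 and RpS30. The families with 1 bound copy numbered 4 or 5 with a replicate left out, and 3 when any region of the pooled list counted. A TCT start with the C exactly at a TSS was present at 2 genes, against 0.423% of all genes. DRE within 100 bp of the summit was at 10 genes, as given above. The other 36 of 39 recomputed values stayed within 1.5 times the count or within the replicate SD. Depth is unknown, so low regions cannot be called absent. No paired analysis was possible because there is 1 group.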
